A study of Mus musculus with 31 samples.

Results

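The genes described here are 10 regulators and markers of pluripotent cells other than the genes of OCT4, SOX2 and NANOG, namely Esrrb, Sall4, Lin28a, Zfp42, Tfcp2l1, Prdm14, Utf1, Nr5a2, Dppa4 and Tdgf1. They were taken by name from the 21938 protein-coding genes of the GENCODE annotation, and all 10 were found there. Their surroundings were examined in the ATAC-seq peak list of a single library, made from the parental NIH-3T3 line of mouse embryonic fibroblasts. The labels give these cells as WT, name no transcription factor (TF) transgene for them and list no doxycycline, whereas the methods describe doxycycline for NIH-3T3 cells before ATAC-seq without setting the WT cells apart. Whether this library was treated is therefore not settled here. The series has 30 further samples, 26 in which 13 TFs were overexpressed and 4 with rtTA3G alone, which were not analysed here. In ATAC-seq the transposase Tn5 inserts adapters into accessible DNA, and a peak is an interval in which more fragments pile up than the peak caller expects. With 1 library there is no replicate error, so every value below describes this library, without a test of any difference.

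The 10 genes belong to the network that keeps embryonic stem (ES) cells self-renewing. Esrrb, Tfcp2l1, Nr5a2, Prdm14 and Sall4 encode TFs of this network, some of which sustain the transcription of Pou5f1, the gene of OCT4. Zfp42 (also called Rex1), Utf1 and Dppa4 are widely used markers of ES cells and early embryos, Lin28a encodes an RNA-binding protein that blocks maturation of the let-7 microRNAs, and Tdgf1 (Cripto) encodes a co-receptor for Nodal. Fibroblasts are not known to use this network as a whole, and many of its genes are switched on when fibroblasts are reprogrammed to pluripotency.

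The list held 63456 peaks with a median fold enrichment of 6.04, a median width of 327 bp and a median of 29 fragments at the summit. Fold enrichment, as deposited by the authors, is the fragment pileup at the summit over the pileup expected locally, with 1 added to both. The lowest summit was covered by 10 fragments, where the caller expected 2.81. A promoter without a peak therefore means that accessibility was not detectable at this depth, and not that it was absent. The fibroblast label was checked against marker genes. All 14 fibroblast markers had a peak within 1 kb of an annotated start, with Fn1 (fold enrichment 10.5) and Twist1 (10.1) the highest. The lowest was that of Thy1 (3.41), covered by 12 fragments and 862 bp from a start. The counts were 2 of 8 for epithelial markers, 2 of 8 for blood markers and 1 of 8 for neural markers. Cdh1, Cldn4, Cd3e and Neurod1 were among those without a promoter peak. The epithelial markers with a peak were Grhl2 (5.40) and Krt8 (3.25), the blood markers were Cd34 (10.1) and Spi1 (3.22), and the neural marker was Gfap (4.26).

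None of the 10 pluripotency genes had a promoter peak. A peak was assigned to a promoter when its interval came within 1 kb of an annotated transcript start. The 10 genes have 35 distinct starts for 37 transcripts, and 0 of the 35 starts had a peak that close. Among all protein-coding genes, 53.7% had a promoter peak. The closest approach was at Esrrb, where a peak lay 5330 bp from a start. Prdm14 followed with 6912 bp, Lin28a with 8352 bp and Utf1 with 12627 bp. Dppa4 (19823 bp), Sall4 (21446 bp) and Tdgf1 (21849 bp) lay close together. Tfcp2l1 (48668 bp), Nr5a2 (90561 bp) and Zfp42 (788044 bp) were the farthest from a peak. The median over the 10 genes was 20634.5 bp, beside 23094 bp over the 10150 protein-coding genes without a promoter peak and 92.5 bp over all protein-coding genes. The distances of the 10 genes thus spread around the median of other genes without a promoter peak.

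**Figure D1:**
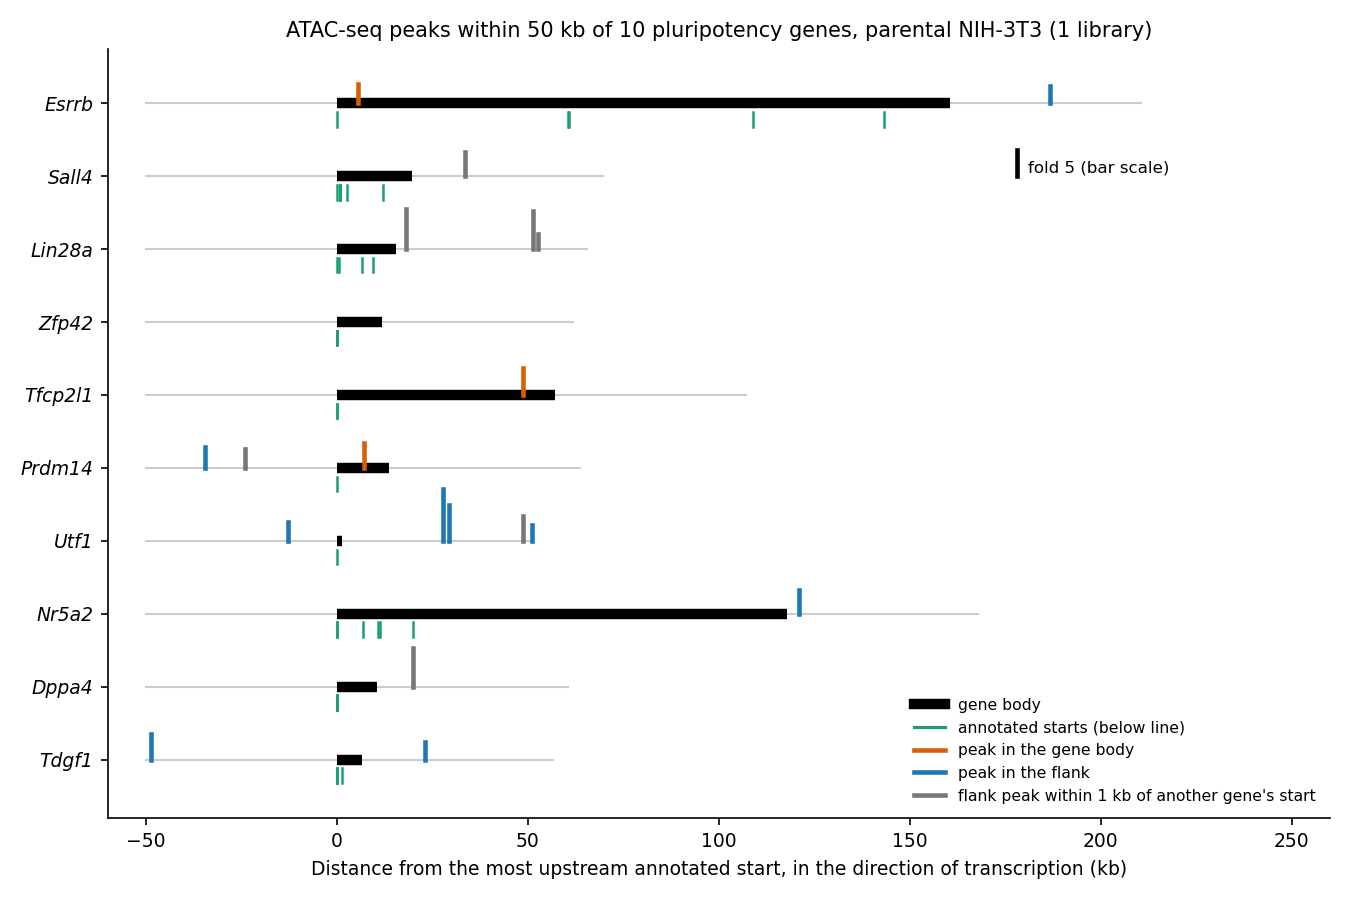
Each row is a gene drawn in the direction of transcription, with distance from its most upstream start in kb, its body as a black bar, annotated starts as green ticks and peaks as vertical bars whose height is fold enrichment (key at the right). No bar stands at a green tick, Zfp42 has no peak in its row, and the highest bar lies 27.8 kb downstream of the start of Utf1.

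**Figure D2:**
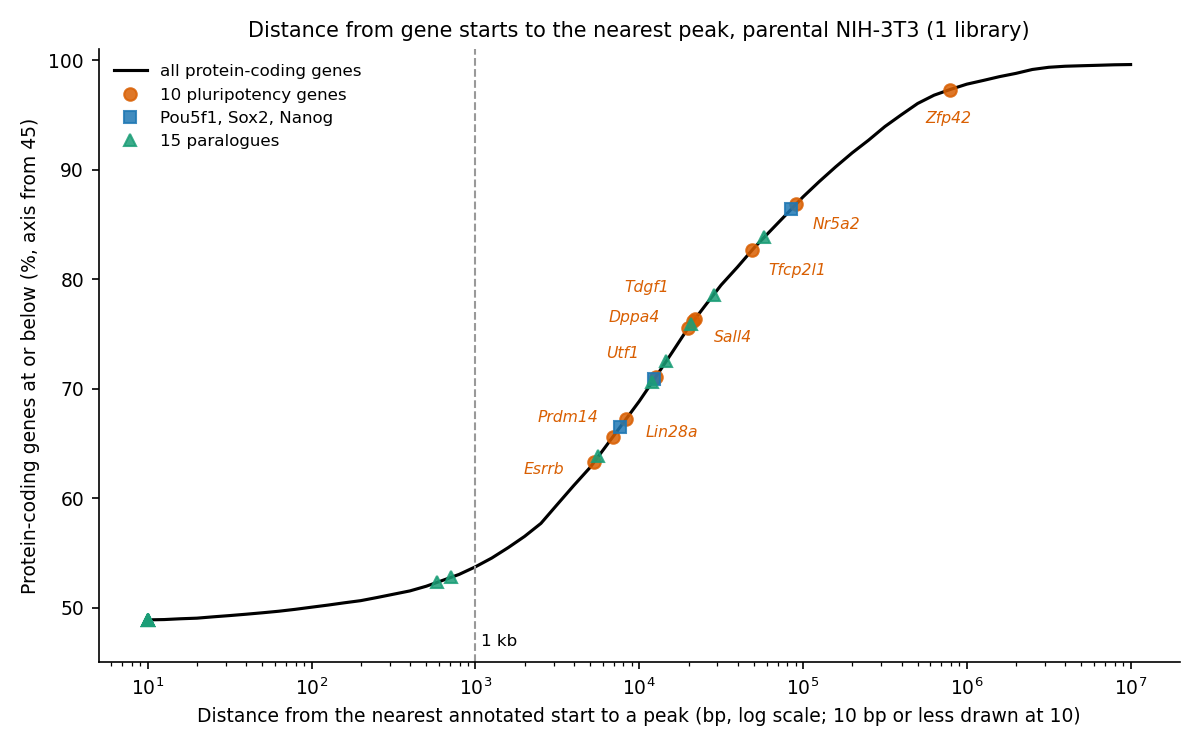
The curve gives the percentage of all protein-coding genes (y axis, from 45%) whose nearest peak lies at or below a distance in bp (x axis, log scale), and the points place the 10 pluripotency genes, the 3 core factor genes and the 15 paralogues on it. All 10 orange points lie to the right of the dashed line at 1 kb, from 5330 bp for Esrrb to 788044 bp for Zfp42.

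The absence of a promoter peak was seen in CpG-rich and in CpG-poor promoters. CpG-rich promoters are those in which CpG dinucleotides have not been depleted, and they are accessible in most cell types. A gene was counted as CpG-rich when, in 500 bp to either side of any of its starts, the observed/expected CpG ratio was at least 0.6 and GC content at least 50%. Under this definition 82.1% of protein-coding genes with a CpG-rich promoter had a promoter peak, and 24.0% of the others. Esrrb, Sall4, Lin28a, Utf1 and Nr5a2 were CpG-rich, and 0 of these 5 had a promoter peak. Zfp42, Tfcp2l1, Prdm14, Dppa4 and Tdgf1 were not, and 0 of these 5 had one either. Among the CpG-rich marker genes, a promoter peak was found at 6 of 6 for fibroblasts, 1 of 4 for epithelium, 0 of 1 for blood and 0 of 5 for neural cells. CpG-rich genes without a promoter peak were thus also seen among markers of other cell types.

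In some of the genes the starts differed widely in CpG content, whereas the starts of Zfp42, Dppa4 and Tfcp2l1 were alike. Sall4 had the highest ratio, 0.83 at its second start, 32704 bp from the nearest peak. Utf1, whose only start had a ratio of 0.80, lay 12627 bp from one. In Esrrb the first start had a ratio of 0.28 and the third, inside the gene, 0.73. In Nr5a2 the ratio went from 0.090 at the second start to 0.61 at the fifth. Lin28a reached 0.60 at its second start only. Tfcp2l1 fell just short with 0.58, and Tdgf1 reached 0.69 but with a GC content of 45.1%. Dppa4 had the lowest best value, 0.39. Of the 35 starts, 10 were CpG-rich.

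**Figure D3:**
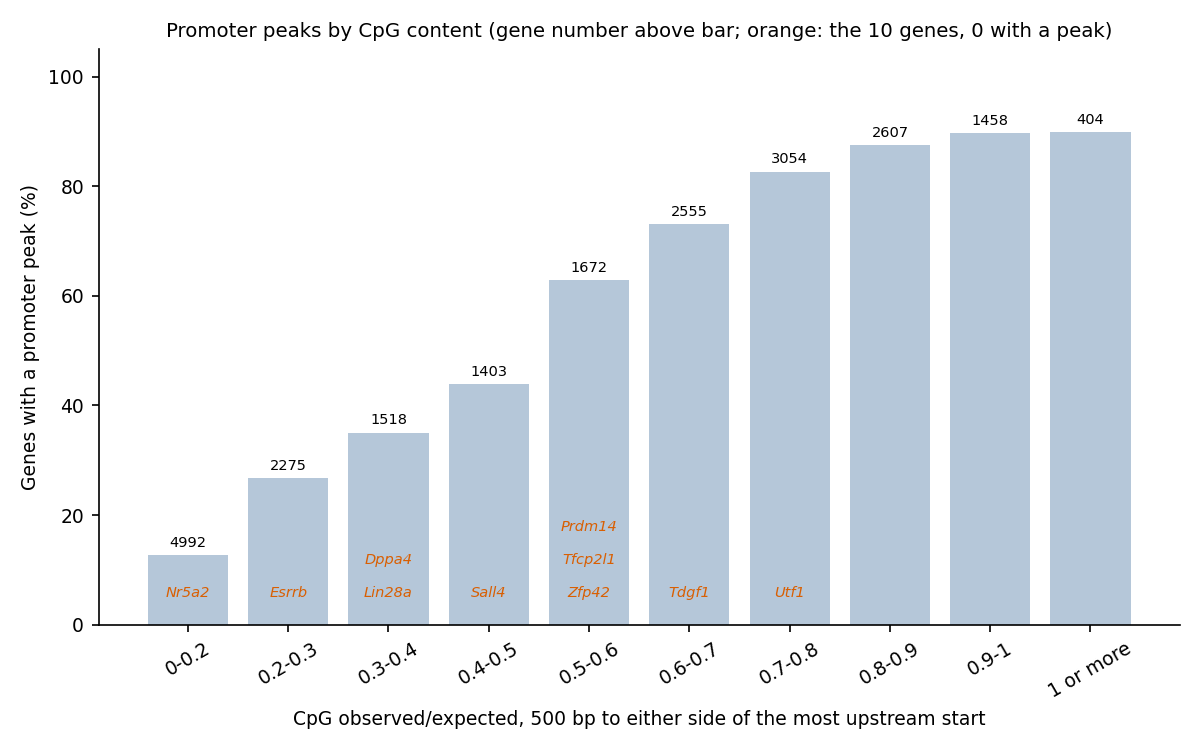
Bars give the percentage of protein-coding genes with a promoter peak (y axis) in classes of the observed/expected CpG ratio around the most upstream start (x axis), with the number of genes above each bar and the 10 pluripotency genes named in orange in the class they fall in. The percentage goes from 12.7% in the lowest class to 89.9% in the highest, and the 10 genes, from Nr5a2 in the lowest class to Utf1 in the class of 0.7 to 0.8, have no promoter peak.

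Reads were kept only when they mapped to a single place, so a promoter with a near-identical copy elsewhere would collect fewer fragments. The 500 bp around each of the 35 starts were therefore matched to the genome. None matched elsewhere over 450 bp or more with 98% identity or higher. At Tdgf1, 3 of the 4 starts had another match of up to 269 bp with up to 97.4% identity. A start of Nr5a2 had matches of up to 426 bp with up to 91.3% identity. The starts of Zfp42 had matches of up to 152 bp with up to 94.7% identity. Other matches, at Lin28a and Dppa4, were shorter. The effect of these partial matches on coverage was not tested.

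Promoter sequences are shown for 2 of the genes, because the first, of a gene just short of the CpG-rich definition, holds the most CpG of the 9 matched promoters, the second holds sequences that known factors bind, and neither had a peak. RefSeq promoters (GRCm38.p6, 250 bases before to 50 after a start) were matched for 7 of the 10 genes, without Sall4, Prdm14 and Dppa4. Only the 250 bases before the start are printed, 5′ to 3′. In the promoter of Tfcp2l1, chr1:118627695-118627944 on the plus strand, capitals mark the 16 CpG, beside a median of 6 CpG in the same stretch of 32851 RefSeq promoters. In the promoter of Zfp42, chr8:43307010-43307259 read on the minus strand, capitals mark from left to right an octamer, a KLF sequence and a TEAD sequence, each on the reverse strand of the promoter.
Tfcp2l1: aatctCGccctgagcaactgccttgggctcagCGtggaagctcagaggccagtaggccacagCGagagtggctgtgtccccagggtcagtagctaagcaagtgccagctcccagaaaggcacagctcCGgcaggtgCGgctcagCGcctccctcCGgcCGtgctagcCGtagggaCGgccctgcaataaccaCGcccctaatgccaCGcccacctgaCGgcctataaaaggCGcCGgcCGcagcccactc
Zfp42: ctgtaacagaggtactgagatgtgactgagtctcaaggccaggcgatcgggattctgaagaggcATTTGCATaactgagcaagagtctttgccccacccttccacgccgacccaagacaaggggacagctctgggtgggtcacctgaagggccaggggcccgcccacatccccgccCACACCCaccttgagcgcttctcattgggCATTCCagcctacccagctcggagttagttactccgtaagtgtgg
The octamer ATGCAAAT, known to be bound by OCT4 and other POU factors, lies from position -186 to -179 relative to the RefSeq start of Zfp42. Searched on both strands, it was in 1.74% of all RefSeq promoters and in 1 of the 9 promoters of these genes. The KLF sequence GGGTGTG was in 7.95% of all promoters and in 2 of the 9, Zfp42 and the upstream promoter of Esrrb. The TEAD sequence GGAATG was in 14.7% of all promoters and in 2 of the 9, Zfp42 and a promoter of Nr5a2. The SOX sequence ACAATG was in 12.6% of all promoters and in 2 of the 9, Lin28a and the upstream promoter of Esrrb. The other 4 sequences searched were in 0 of the 9, with RUNX in 16.8%, AP-1 in 5.20%, CTCF in 0.557% and the ESRRB sequence in 0.423% of all promoters. A match describes the letters only, and binding was not measured here.

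A body peak overlaps the gene and lies farther than 1 kb from its starts. Of the 10 genes 3 had a body peak, and each of the 3 had 1, beside 34.3% of all protein-coding genes with at least 1, so that their share was near that of all genes. The median number of body peaks over all protein-coding genes was 0. Only the peak in Tfcp2l1 was left when a fold enrichment of at least 5 was required, where 24.8% of all protein-coding genes had a body peak.

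Esrrb and Nr5a2 encode orphan nuclear receptors and are the longest of the genes. Esrrb (mm10, chromosome 12, 86361117 to 86521628) had a single body peak in an intron, from 86366447 to 86366593. Its summit was covered by 13 fragments, with a −log10 q of 3.61 and a fold enrichment of 3.68, and 15.7% of all peaks were no higher. Among 758 genes within 20% of the length of Esrrb, 82.2% had a body peak and the median was 3. A weaker peak lay 26172 bp past the end of Esrrb, between genes, covered by 12 fragments (fold enrichment 3.41). Nr5a2, on chromosome 1 from 136842571 to 136960448, had 0 body peaks, whereas 79.7% of 1062 genes of like length had at least 1 and their median was 2. Of these genes 20.3% had 0, as Nr5a2 did. The only peak within 50 kb of Nr5a2 lay 3089 bp past its end, covered by 19 fragments (fold enrichment 4.59, −log10 q 6.93). The peak nearest to a start of Nr5a2 lay 90561 bp upstream, covered by 11 fragments (fold enrichment 3.13).

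The intronic peak of Esrrb and the peak past the end of Nr5a2 are shown because they are the peaks inside or closest beside the receptor genes. Both are printed whole on the plus strand of mm10, chr12:86366447-86366593 and chr1:136839307-136839482. Capitals mark a TEAD sequence followed by a RUNX sequence (TGTGGT) in the former, both on the reverse strand, and the AP-1 sequence TGACTCA, here on the reverse strand, in the latter.
Esrrb intron: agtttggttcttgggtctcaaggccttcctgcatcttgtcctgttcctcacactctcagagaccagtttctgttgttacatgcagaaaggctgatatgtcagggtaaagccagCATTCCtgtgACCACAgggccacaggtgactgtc
Nr5a2 downstream: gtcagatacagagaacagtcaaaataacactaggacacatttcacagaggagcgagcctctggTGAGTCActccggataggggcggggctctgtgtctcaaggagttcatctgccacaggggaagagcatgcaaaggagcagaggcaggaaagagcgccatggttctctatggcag
The AP-1 match was centred 16 bp from the summit of the Nr5a2 peak. The TEAD and RUNX matches lay 39 and 49 bp from the summit of the Esrrb peak. Neither peak held the sequence TCAAGGTCA that ESRRB is known to bind.

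Tfcp2l1 encodes a TF of the CP2 family that acts downstream of LIF in ES cells. The gene, on chromosome 1 from 118627945 to 118685168, held the highest of the body peaks, in an intron from 118676614 to 118677015. Its summit was covered by 23 fragments (fold enrichment 5.09, −log10 q 9.25). It lay 48668 bp from the start, and no peak was found in the 50 kb on either side of the gene. Of 1708 genes of like length 63.3% had a body peak, with a median of 1. The part of the peak from its start across its summit, chr1:118676614-118676862 on the plus strand, is shown because it held none of the 8 sequences searched (AP-1, TEAD, RUNX, octamer, SOX, ESRRB, KLF and CTCF), so that it has no capitals.
Tfcp2l1 intron: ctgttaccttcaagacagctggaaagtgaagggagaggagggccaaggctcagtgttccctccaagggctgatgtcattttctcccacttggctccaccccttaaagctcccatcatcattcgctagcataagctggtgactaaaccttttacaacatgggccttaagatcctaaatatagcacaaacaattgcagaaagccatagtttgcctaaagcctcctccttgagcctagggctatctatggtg

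Prdm14, Sall4 and Zfp42 encode zinc finger proteins. PRDM14 represses differentiation genes and DNA methylation in ES cells. Its gene, on chromosome 1 from 13113457 to 13127163, had an intronic peak from 13120082 to 13120251 covered by 17 fragments (fold enrichment 4.73, −log10 q 6.57). Of 2324 genes of like length 22.6% had a body peak. The peak held an AP-1 and a TEAD sequence, centred 40 and 45 bp from the summit. Upstream of Prdm14 lay peaks with fold enrichments of 3.59 and 4.01 in Ncoa2, the first of them within 1 kb of a start of Ncoa2, which encodes a nuclear receptor coactivator.

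SALL4 maintains ES cell identity and recruits histone deacetylases. Sall4, on chromosome 2 from 168748332 to 168767943, had 0 body peaks. The single peak in its surroundings lay at a start of the neighbouring gene Atp9a, from 168734090 to 168734497, covered by 18 fragments (fold enrichment 4.60).

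Zfp42, on chromosome 8 from 43295063 to 43306980, was the farthest of the 10 genes from any peak. It lay in a stretch of 2025 kb without any peak, from 42069663 to 44095023, with 0 N bases and 41.4% soft-masked sequence. Of all protein-coding genes 4.04% lay in a stretch as long. The starts of 7 protein-coding genes fall in this stretch, Zfp42 itself, Triml1, Triml2, Adam26a, Adam26b, Adam34 and Gm5346. The peak that bounds this stretch at 44095023 had a fold enrichment of 3.41 and 12 fragments. It was the peak nearest to a start of Zfp42, at 788044 bp.

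Utf1 and Dppa4 encode chromatin-associated proteins. Utf1, on chromosome 7 from 139943789 to 139945112, is the shortest of the genes and had 0 body peaks. Of 446 genes of like length 0.897% had one. It had the most peaks in its surroundings, 5, of which 4 lay downstream. The strongest lay 26.0 kb past its end, from 139971112 to 139971926, in an intron of the noncoding transcript Gm16201, covered by 85 fragments where 7.72 were expected (fold enrichment 9.86, −log10 q 53.9). The next, from 139972963 to 139973237, was covered by 59 fragments (fold enrichment 6.84). Both lay nearer to starts of 6430531B16Rik, at 6793 and 5482 bp, than to Utf1. The others had fold enrichments of 3.68 upstream in an intron of Kndc1, 4.79 at a start of Adam8 and 3.00 beyond it. The sequence around the strongest summit, chr7:139971521-139971721 on the plus strand, is shown because this peak has the highest fold enrichment of the 19 peaks in and around the 10 genes. Capitals mark the AP-1 sequences TGACTCA, centred 23 bp before and 26 bp after the summit.
Utf1 downstream: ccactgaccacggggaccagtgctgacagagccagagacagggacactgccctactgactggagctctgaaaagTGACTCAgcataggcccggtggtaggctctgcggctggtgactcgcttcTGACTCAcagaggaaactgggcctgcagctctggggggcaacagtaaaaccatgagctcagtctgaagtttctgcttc

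Dppa4, on chromosome 16 from 48283733 to 48294237, had 0 body peaks. Its only peak lay at the promoter of the adjacent paralogue Dppa2, with which it is known to act in the early embryo. This peak, from 48303610 to 48303910, covered the start of Dppa2 at 48303908, with the summit at -180 bp from it. The summit was covered by 27 fragments (fold enrichment 7.35, −log10 q 15.5), and an AP-1 sequence was centred 9 bp from the summit. Dppa2 is not CpG-rich, and 24.0% of such genes had a promoter peak. On the other side of Dppa4 there was no peak over a stretch that runs for 823.1 kb in all and ends at the Dppa2 peak. These neighbours thus had 0 (Dppa4) and 1 (Dppa2) promoter peaks.

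Lin28a, on chromosome 4 from 134003330 to 134018841, had 0 body peaks. Its 3 surrounding peaks all lay downstream within 1 kb of starts of other genes. The peak at Dhdds, 2271 bp past the end of Lin28a, had a fold enrichment of 7.62 and 28 fragments. The peaks at Hmgn2, which encodes a nucleosome-binding protein, had fold enrichments of 7.32 and 2.96 with 31 and 12 fragments. Between the Dhdds peak and the next peak upstream of Lin28a there was a stretch of 101.4 kb without any peak.

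Tdgf1, on chromosome 9 from 110939603 to 110946158, had 0 body peaks. It had a peak 16581 bp past its end with a fold enrichment of 3.41 and 12 fragments, and another 48571 bp upstream with 4.99 and 19 fragments. Neither lay within 1 kb of a start of another gene.

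The stretch without any peak around the most upstream start ranged from 30.9 kb at Prdm14 to the 2025 kb of Zfp42. Dppa4, Nr5a2 (211.5 kb) and Tfcp2l1 also lay above the median of 132.5 kb over protein-coding genes without a promoter peak, and the other 6 genes lay below it.

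In all, 8 of the 10 genes had a peak in the 50 kb on either side, beside 81.1% of all protein-coding genes. The exceptions were Zfp42 and Tfcp2l1. The median number of such peaks was 1 over the 10 genes, 4 over all protein-coding genes and 2 over those without a promoter peak. With a fold enrichment of at least 5 required, 3 of the 10 genes kept a peak in the flanks, namely Lin28a, Utf1 and Dppa4, beside 75.9% of all protein-coding genes. Without peaks at starts of other genes, 5 kept one, beside 73.8%.

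The surroundings of the 10 genes held 19 peaks, 3 in bodies and 16 in flanks, and 7 of the 16 lay within 1 kb of a start of another gene. They had a median fold enrichment of 4.60, between 2.96 and 9.86, and 14 of the 19 lay below the list's median of 6.04. Their widths had a median of 207 bp. The summits were covered by 12 to 85 fragments with a median of 18, and 16 of 19 were at or below the list's median of 29 fragments. Most of the 19 lay farther than 1 kb from any start, and over all such peaks of the list the medians were a fold enrichment of 5.54, 25 fragments and a width of 278 bp. A fold enrichment of 5 was reached by 6 peaks, namely those at Hmgn2, Dhdds and Dppa2, the intronic peak of Tfcp2l1 and the pair downstream of Utf1.

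**Figure D4:**
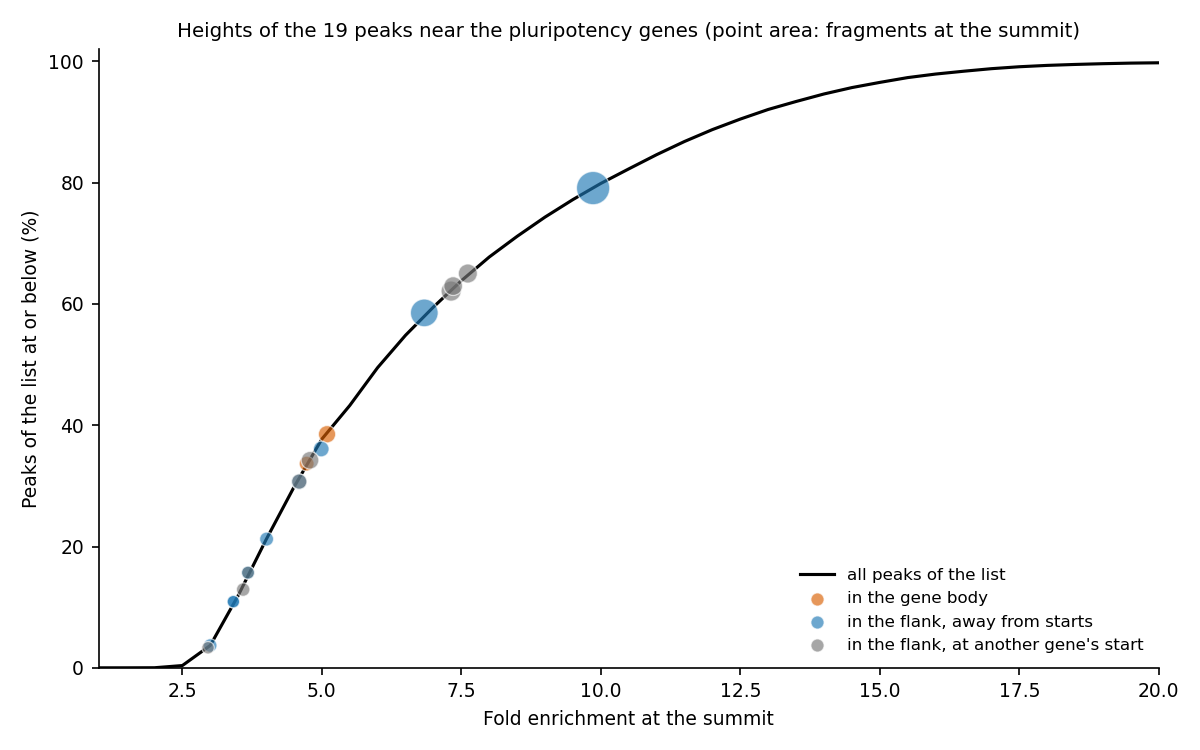
Each point is 1 of the 19 peaks, with fold enrichment on the x axis, the percentage of all peaks that were no higher on the y axis, area in proportion to the fragments at the summit and colour for its place. The curve covers all 63456 peaks. Most points sit low on the curve, and the pair of large points belongs to the peaks downstream of Utf1, with 59 and 85 fragments.

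The neighbours of the 10 genes were not uniformly without promoter peaks. Of 14 other protein-coding genes with a start inside the 50 kb windows, 7 had a promoter peak, beside the 53.7% of all genes. They were Atp9a, Hmgn2, Dhdds, Clasp1, Ncoa2, Adam8 and Dppa2, and those of Clasp1 lay at starts beyond the window of Tfcp2l1.

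The sequences held by the 19 peaks were set beside those of the whole list. AP-1, the sequence TGACTCA on either strand, was in 4 of the 19 peaks, those of Nr5a2, Prdm14, Dppa4 and the strongest of Utf1, and in 34.9% of all peaks. RUNX was in 3 (30.3% of all peaks), TEAD in 2 (24.4%), CTCF in 2 (4.25%), SOX in 1 (20.2%) and KLF in 1 (12.5%). The octamer and the ESRRB sequence were in 0 of the 19, and in 1.81% and 0.616% of all peaks. These counts are small, and the median width of the 19 peaks was 207 bp beside 327 bp for the list. In a window of the same width at every summit AP-1 was in 4 of the 19 beside 21.7% of all peaks, so that the shares were alike. In that window TEAD was in 2 (8.39% of all peaks), CTCF in 2 (3.19%), SOX in 1 (7.02%), KLF in 1 (3.81%) and RUNX in 0 (11.4%).

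The core factors of the same network were compared by the same rule. Pou5f1, Sox2 and Nanog, which encode OCT4, SOX2 and NANOG, had 0 promoter peaks and 0 body peaks. In the 50 kb on either side Pou5f1 and Nanog had 6 peaks each and Sox2 had 0, against a median of 1 for the 10 genes. The nearest peak lay 7622 bp from a start of Pou5f1, 12373 bp from Nanog and 84738 bp from Sox2, distances within the range of the 10 genes.

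The 15 paralogues of the 10 genes, many of them used outside pluripotent cells, had a promoter peak in 9 cases, with its fold enrichment given in parentheses. Esrra (9.57), the broadly expressed relative of Esrrb, had one, while Esrrg, the third member of the family, had none. Tfcp2 (12.9) and Ubp1, the relatives of Tfcp2l1, both had one, the latter covered by 125 fragments. Yy1 (12.1), from which Zfp42 is thought to derive, had one. Prdm4 (16.3) and Prdm1, the latter at 712 bp from a start and covered by 66 fragments, had one, and Prdm14 had none. Lin28b (3.68) had one with 13 fragments, at 585 bp from a start inside the gene. It did not lie at the most upstream start of Lin28b, where the CpG ratio was 1.08. Dppa2 had the peak described beside Dppa4. Sall1, Sall2, Sall3, Nr5a1 and Cfc1, the relatives of Sall4, Nr5a2 and Tdgf1, had none. Within the SALL, NR5A and CFC families no listed gene had a promoter peak, whereas the ESRR, CP2, PRDM, LIN28 and DPPA families held genes with and without one. CpG content differs along with this, since 12 of the 15 paralogues were CpG-rich and 8 of those 12 had a promoter peak.

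Lists of genes that work with the 10 genes were set beside the 53.7% of all protein-coding genes and the 82.1% of CpG-rich ones, with the fold enrichment of promoter peaks again in parentheses. Of 22 other genes of the pluripotency network 13 had one, with Zfp281 (14.4) and Klf5 (14.2) the highest, and Dppa3 and Dppa5a were among those without. Of 11 genes of the LIN28 and let-7 axis 10 had one, among them Drosha (16.9), which cuts primary microRNAs, and Tut7 (14.2), which adds uridines to let-7 precursors, and Trim71 had none. Of 12 genes of repressor complexes that work with PRDM14 or SALL4, 11 had one. Cbfa2t2 (15.5), the co-repressor that binds PRDM14, and Hdac1 (14.2) were the highest, and Cbfa2t3 had none. Of 11 genes of the Nodal pathway around TDGF1 7 had one, with Smad4 (11.6) and Smad2 (11.2) the highest. Foxh1 and Lefty1 were among those without. Most genes of these lists were CpG-rich, and a promoter peak was found at 12 of 15 CpG-rich genes of the other network genes, 10 of 11 of the LIN28 and let-7 axis, 11 of 12 of the repressor complexes and 7 of 7 of the Nodal pathway.

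**Figure D5:**
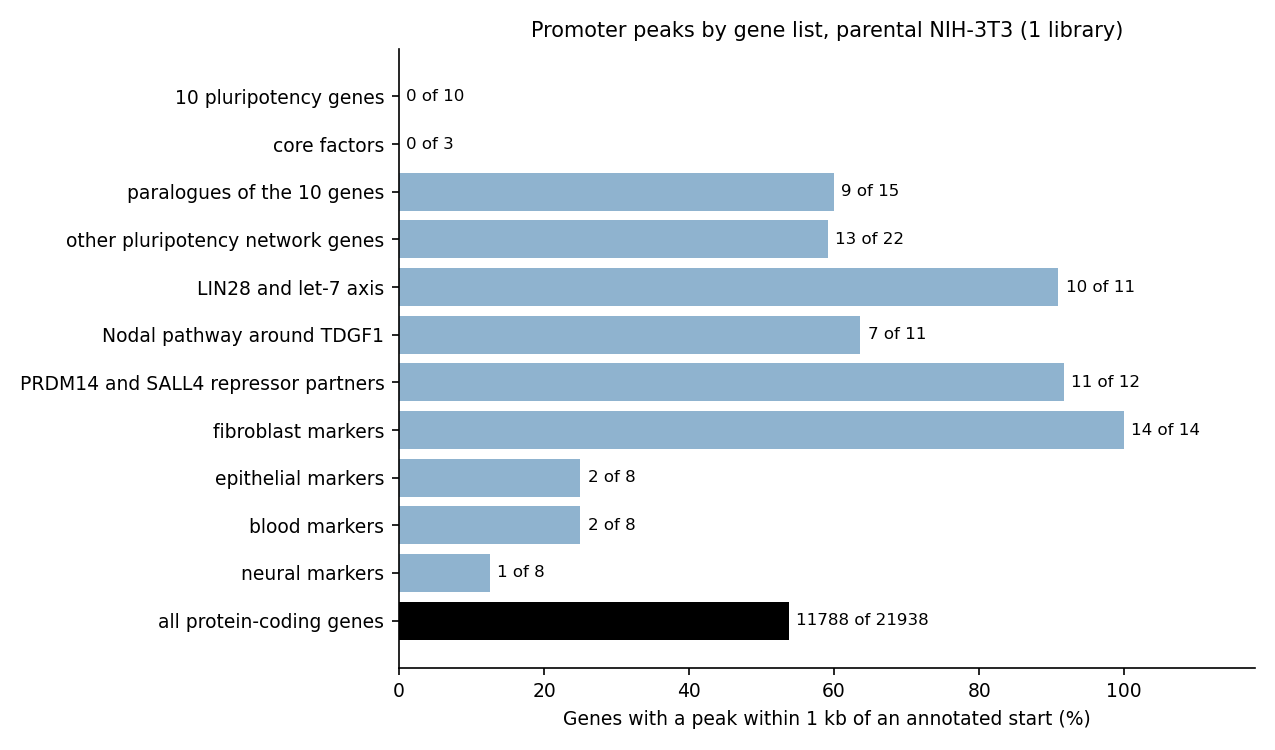
Bars give the percentage of genes with a peak within 1 kb of an annotated start (x axis) for each list of genes (y axis), with the counts at the bar ends. The bars for the 10 pluripotency genes and the 3 core factors are at 0, the partner lists lie between 59.1% and 91.7%, and all protein-coding genes are at 53.7%.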

How the data were processed

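ATAC-seq was performed on 50000 parental NIH-3T3 cells with 0.5 µM Tn5. The authors used STAR 2.5.3a to map read pairs to mm10, Picard to drop duplicates, and MACS2 2.1.1.20160309 to call peaks from whole fragments of this 1 library. Only unique alignments to the autosomes and sex chromosomes entered. The deposited peaks carry the fold enrichment as a ratio, the −log10 of the p-value and of the q-value, and a score of 10 times the latter. No Tn5 shift is described.

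Peaks were set against GENCODE M21 and the GRCm38.p6 sequence, whose chromosome lengths match mm10. Coordinates count from 1. The number of fragments under each summit was computed back from the fold enrichment and the p-value, except for 29 peaks whose p-values were too small to solve. Of the solved values 99.998% came out within 0.02 of a whole number. This step was tested on simulated data. Sequences were searched on both strands over whole peaks. Promoter copies were searched with BLAST 2.17.0 (e-value 1e-10). Computation used pandas 2.3.3 and SciPy 1.17.1 with NumPy 2.4.6 in Python 3.11.15, and matplotlib 3.10.9 for plots.

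The genes, lists and rules were chosen with earlier results of these data known. All 10 genes were named with each of their peaks, as were the core factors and paralogues. From the other lists the 2 highest promoter peaks and the first 2 genes in the alphabet without one were named. For the fibroblast markers the lowest promoter peak was named as well. Some genes of these lists are counted but not reported here by name. Alternatives changed the q threshold (0.01, 1e-05), the lowest fold enrichment (5), distances, starts, overlaps and windows.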

Additional observations from a re-analysis of the deposited data

How the results depend on the processing

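No paired analysis was possible because there was no second library to pair. The count of 0 genes with a promoter peak was found under each of 9 other settings. Among them were a q of 1e-05, a distance of 5 kb and only the most upstream start. Under the 9 settings 48.7% to 62.8% of all protein-coding genes had a promoter peak. Only the distance of 5 kb widened the rule. The others kept a part of the same peaks or starts, or a shorter distance, so a count of 0 could not change under them. A distance of 10 kb, added after the data were seen, gave 3 genes (Esrrb, Prdm14 and Lin28a) beside 68.8% of all. With a fold enrichment of at least 5, 1 gene had a body peak (24.8% of all), 3 had a flank peak (75.9%) and the median distance to the nearest peak was 104802 bp. With a q of 1e-05 or below that median was 37947 bp. Both settings leave fewer peaks in the list. Without peaks at starts of other genes, 5 genes had a flank peak (73.8%). In a window of equal width around the summits, RUNX was in 0 peaks (11.4% of all peaks). Of 31 alternatives, 24 gave a value within 1.5 times the main one and 7 moved it further. The 24 include the settings under which the count of 0 promoter peaks could not change. The 3 alternatives for the median distance were also added after the data were seen. The depth limits the list to summits of 10 or more fragments, and 1 library gives no replicate error.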
